A study of Mus musculus with 6 samples.

Results

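The astrocyte genes are 32 genes known to be enriched in astrocytes, chosen by their gene symbols in the deposited count table, which held 53801 genes. All 32 symbols were found, each once, and all 32 passed the filter on low counts that left 23975 genes to test. RNA-seq read counts per gene were obtained from 1 brain hemisphere of each of 3 Bahd1-WT (Bahd1+/+) and 3 Bahd1-KO (Bahd1-/-) male mice of the C57BL/6 strain, untreated adults of about 70 weeks. Both genotypes share the background strain, and the knockout was constitutive, so that every cell of the Bahd1-KO animals lacked the gene from conception. BAHD1 is a chromatin protein that takes part in gene repression, and the comparison asks which transcripts differ in the adult brain without it. The p-values measure the spread between these animals, with 3 per genotype.

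Astrocytes are the star-shaped glial cells that take up glutamate released at synapses, buffer potassium and water, couple to each other through gap junctions and wrap vessels with their endfeet. They supply lipoproteins and metabolites to neurons, and after injury they become reactive, with more intermediate filaments. In counts from bulk tissue, fewer astrocytes and less RNA per astrocyte cannot be told apart. Many of the genes are not exclusive to astrocytes. Glul, Apoe, Clu, Cst3 and Vim are also made by microglia, endothelium or ependyma, S100b by oligodendrocytes, Slc4a4 and Id3 by endothelium, and Fabp7 by other glia.

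The promoters of 3 members are shown as examples of higher and lower means in Bahd1-KO. Id3 and Agt were among the members with the highest fold in Bahd1-KO, and Slc4a4 was among those with a lower mean. The sequences are the 250 bases before the RefSeq start of each gene on build GRCm38.p6, read 5′ to 3′ on the gene's strand: Id3 at chr4:136143572-136143821 (+ strand), Agt at chr8:124569707-124569956 (− strand) and Slc4a4 at chr5:88887010-88887259 (+ strand). The Id3 and Slc4a4 windows lie inside the GENCODE bounds of these genes, which start upstream of the windows. Capitals mark matches to 4 motifs, the TATA box TATAAA on the given strand, and on either strand the GC box GGGCGG bound by SP1, the STAT site TTCNNNGAA and the NFI half-site TTGGC. No motif of the 4 contains another.
Id3: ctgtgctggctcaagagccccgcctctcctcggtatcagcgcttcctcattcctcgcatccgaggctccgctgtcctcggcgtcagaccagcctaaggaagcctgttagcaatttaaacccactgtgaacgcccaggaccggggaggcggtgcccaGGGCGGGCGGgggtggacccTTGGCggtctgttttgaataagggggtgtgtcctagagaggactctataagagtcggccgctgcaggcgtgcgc
Agt: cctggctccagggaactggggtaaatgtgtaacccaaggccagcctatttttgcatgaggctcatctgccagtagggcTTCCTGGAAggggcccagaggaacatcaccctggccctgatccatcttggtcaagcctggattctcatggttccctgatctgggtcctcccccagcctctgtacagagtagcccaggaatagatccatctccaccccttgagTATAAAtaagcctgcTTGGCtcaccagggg
Slc4a4: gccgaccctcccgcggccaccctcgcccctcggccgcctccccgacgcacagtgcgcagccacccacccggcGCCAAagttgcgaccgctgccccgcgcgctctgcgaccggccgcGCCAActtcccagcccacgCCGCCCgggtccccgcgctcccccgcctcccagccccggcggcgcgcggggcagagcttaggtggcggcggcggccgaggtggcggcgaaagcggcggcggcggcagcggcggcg

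The Agt window held a TATA box, a STAT site and an NFI half-site, the Id3 window GC boxes and an NFI half-site, and the Slc4a4 window a GC box and NFI half-sites. RefSeq windows of 300 bases, from 250 before to 50 after the start, were matched for 27 of the 32 members by symbol. Among these 27, the STAT site TTCNNNGAA was found in 5 (18.5%; Acsbg1, Agt, Gfap, Ntsr2 and Slc1a3), against 8.42% of all 27025 windows. TATAAA was found in 3 (11.1%, against 8.88%), GGGCGG in 11 (40.7%, against 35.9%) and TTGGC in 15 (55.6%, against 47.1%). GC content of the printed windows was 62.8% for Id3, 55.6% for Agt and 82.0% for Slc4a4. Across the 27 members, the GC content of the window had a Spearman correlation of 0.215 with the log2 fold change, given as a description over genes that come from the same 6 libraries.

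Depth ranged from 42297150 to 93557948 counts per library, and the members took between 1.45% and 1.87% of all counts. The lowest count of any member in any library was 64, for Id3 in Bahd1-WT replicate 2, against a detection floor of 3 counts, so that all 32 were detected in every library. Bahd1 had 1383, 844 and 1099 counts in the Bahd1-WT libraries and 0, 14 and 1 in the Bahd1-KO libraries, which follows the labels. The library of Bahd1-KO replicate 2 stood apart: it was the highest of all 6 for 19 members and the lowest of all 6 for 10. Libraries also differed in how their counts varied with the GC content of the transcripts. Among 13007 expressed protein-coding genes, the Spearman correlation of GC content with the deviation from the Bahd1-WT mean was 0.57, -0.618 and 0.09 in Bahd1-WT replicates 1 to 3, and 0.675, 0.878 and 0.826 in Bahd1-KO replicates 1 to 3. For this reason, the log2 fold change of each member is also given with an offset that takes each library's trend of counts with GC content and transcript length out of the comparison. Transcripts of lung epithelium, such as surfactant genes, were present in the Bahd1-WT libraries, at a summed 103, 24.7 and 2.33 CPM against 0.529 to 1.83 CPM in Bahd1-KO. Levels are given as CPM, the counts of a gene scaled to a fixed library total, on TMM-normalized library sizes.

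No member was a differentially expressed gene (DEG), defined by an adjusted p-value under 0.05 and at least a 2-fold difference in edgeR's quasi-likelihood test, and 0.00834% of all genes tested were (2 of 23975, Bahd1 and the pseudogene Uqcrh-ps2). At an unadjusted p under 0.05, 14 members were higher and 1 was lower in Bahd1-KO (43.8% and 3.12%), where 19.9% of all genes were higher and 12% lower, 31.8% in either direction. At the looser threshold of an adjusted p-value under 0.1, 9 of the 32 members were higher (28.1%) and 0 were lower. The background at this threshold was 14.7% of all genes higher and 4.77% lower. It was 21.9% and 4.44% of the expressed protein-coding genes. The 9 were Slc7a10, Apoe, Id3, Acsbg1, Agt, Aldoc, Aldh1l1, Fgfr3 and Clu, with log2 fold changes from 0.60 for Clu to 2.62 for Id3. DESeq2's Wald test with a normal prior called 6 members as DEGs, all higher (Apoe, Acsbg1, Slc7a10, Cst3, Id3 and Agt), where it called 9.56% of all genes higher and 0.901% lower. edgeR itself called 7 members when genes with a sum of at least 1 count were kept (these 6 and Aldh1l1), where 7.58% of all genes were called higher, and 6 when libraries were scaled by their total counts, where 7.88% were.

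The log2 fold change was above 0 for 22 members (68.8%) and below 0 for 10, against 46.6% of all genes and 50.5% of expressed protein-coding genes above 0. The median over the members, which are all protein-coding, was 0.33, beside -0.06 over all genes tested and 0.03 over the protein-coding ones. For 15 members (46.9%) every Bahd1-KO library was above every Bahd1-WT library, where the background was 20.6% of all genes and 29.4% of expressed protein-coding genes. For 4 members (12.5%) every Bahd1-KO library was below, where the background was 19.3% and 22.3%. The remaining 13 overlapped. The order of the libraries was shared by many members. In 14 of the 15 members with separated higher values, Bahd1-KO replicate 2 was the highest library, and in all 10 members with a log2 fold change below 0 it was the lowest. The plot of each library by member shows this order.

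**Figure D1:**
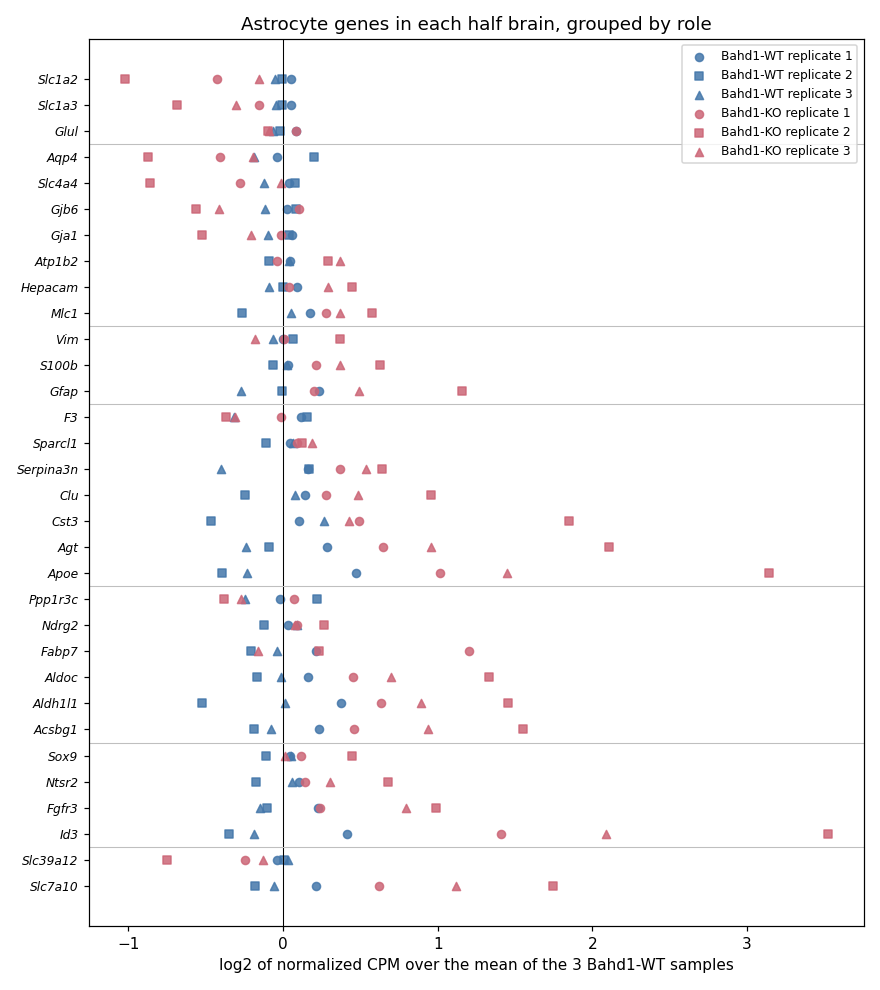
Each symbol is 1 library, as the log2 of normalized CPM over the mean of the 3 Bahd1-WT samples (horizontal axis), for the 32 astrocyte genes grouped by role and separated by gray lines. Bahd1-WT is blue and Bahd1-KO red, and the red square of Bahd1-KO replicate 2 lies at the outer edge of most rows, lowest of all 6 in 10 members and highest in 19.

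The members for glutamate uptake had lower or equal means in Bahd1-KO, and none passed the test. Slc1a2 (GLT-1) and Slc1a3 (GLAST) are the transporters that clear glutamate from the synapse, and Glul is the glutamine synthetase that converts it. Slc1a2 (chr2:102658659-102790784) had 3719, 3568 and 3460.0 CPM in Bahd1-WT and 2668, 1761 and 3220.0 CPM in Bahd1-KO. All Bahd1-KO libraries were lower, and their range was wide. The means were 3582 ± 130.3 and 2549.8 ± 737 CPM (SD, n = 3 each), a log2 fold change of -0.49 (SE 0.22, edgeR adjusted p = 0.165). It was -0.05 with the offset (adjusted p = 0.824). Slc1a3 (chr15:8634124-8710764) had 1218, 1169.5 and 1138 CPM in Bahd1-WT against 1055, 732 and 952 CPM in Bahd1-KO, again without overlap. Its log2 fold change was -0.36 (SE 0.17, edgeR adjusted p = 0.180) and turned to 0.03 with the offset. Glul (chr1:153899944-153909723) spanned 2112 to 2340.2 CPM in Bahd1-WT and 2064 to 2346 CPM in Bahd1-KO, so the groups overlapped. Its log2 fold change of -0.03 (SE 0.15) took the other sign with total counts as the scaling (0.04) and with the offset (0.12).

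The endfoot and junction proteins were divided, with 3 means above and 4 below Bahd1-WT among 7 members and none past the test. Aqp4 is the water channel of astrocytic endfeet, and its gene lies at chr18:15389496-15410982. It had 408, 481 and 367 CPM in Bahd1-WT and 315, 228 and 366 CPM in Bahd1-KO, which left the groups barely separated. The log2 fold change of Aqp4 was -0.47 (SE 0.20, unadjusted p = 0.0494, edgeR adjusted p = 0.156), and it turned to 0.16 with the offset. Slc4a4, a sodium bicarbonate cotransporter, had 353, 362 and 315 CPM in Bahd1-WT and 283, 189 and 341 CPM in Bahd1-KO. These overlapped through replicate 3 of Bahd1-KO, and the log2 fold change was -0.34 (SE 0.22, edgeR adjusted p = 0.295), or 0.05 with the offset. The gap junction genes Gja1 (connexin 43) and Gjb6 (connexin 30) overlapped between genotypes, at 318 to 354 against 237 to 337 CPM for Gja1 and 111 to 126 against 80.8 to 128 CPM for Gjb6. Their log2 fold changes were -0.23 and -0.26. With the offset Gja1 took the other sign, 0.38 (SE 0.10, edgeR adjusted p = 0.0815), and Gjb6 stayed below 0 at -0.17.

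Of the others in this group, Mlc1, whose protein sits in astrocyte membranes near vessels, had 139, 103 and 128 CPM in Bahd1-WT and 149.7, 183 and 159 CPM in Bahd1-KO. The Bahd1-KO libraries were all higher, by a log2 fold change of 0.41 (SE 0.17, edgeR adjusted p = 0.137), or 0.28 with the offset. Hepacam, the adhesion molecule that binds MLC1, had 105 to 119 CPM in Bahd1-WT and 115 to 153 CPM in Bahd1-KO, with a log2 fold change of 0.27 that turned to -0.05 with the offset. Atp1b2, a subunit of the sodium pump, had 798 to 878 CPM in Bahd1-WT and 827 to 1096 CPM in Bahd1-KO, a log2 fold change of 0.22, or 0.03 with the offset. Both sets of values overlapped between genotypes.

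The filament and calcium-binding genes, whose levels are often read as a sign of reactivity, did not pass the test. Gfap encodes the main intermediate filament protein of astrocytes and lies at chr11:102887336-102900912. Its levels were 226, 191 and 159.6 CPM in Bahd1-WT and 221, 429 and 270.3 CPM in Bahd1-KO. The groups overlapped, and Bahd1-KO replicate 2 was by far the highest. The means were 192 ± 33.1 and 307 ± 109 CPM (SD, n = 3 each), a log2 fold change of 0.67 (SE 0.26, edgeR adjusted p = 0.118), which was 0.36 without that library and 0.01 with the offset (adjusted p = 0.973). Vim (vimentin), another filament protein, had 66.8 to 73.0 CPM in Bahd1-WT and 61.6 to 90.1 CPM in Bahd1-KO. A log2 fold change of 0.08 turned to -0.07 with upper-quartile scaling, and to -0.09 without Bahd1-KO replicate 2, and was 0.46 with the offset (SE 0.20, edgeR adjusted p = 0.204). S100b, a calcium-binding protein, had 239, 224 and 238 CPM in Bahd1-WT and 271, 360.3 and 301 CPM in Bahd1-KO. These did not overlap, and the log2 fold change was 0.41 (SE 0.16, edgeR adjusted p = 0.119), or 0.59 with the offset (adjusted p = 0.0875).

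Of the 7 members grouped as secreted proteins and coagulation, 6 had every Bahd1-KO library above every Bahd1-WT library, where 20.6% of all genes and 29.4% of expressed protein-coding genes did. The median GC content of these 7 transcripts was 55.6%, the highest of the 7 role groups, and the part of GC content in this count was not tested beyond the offset. Apoe (chr7:19696109-19699188) encodes apolipoprotein E, the main lipid carrier made by astrocytes. It had 331, 181 and 203 CPM in Bahd1-WT and 482, 2106 and 649 CPM in Bahd1-KO. All Bahd1-KO libraries were higher, and replicate 2 was 3.72 times the mean of the other two. The means were 239 ± 80.7 and 1079 ± 893 CPM (SD, n = 3 each), a 4.52-fold difference with a log2 fold change of 2.18 (SE 0.53, edgeR adjusted p = 0.0634). Without Bahd1-KO replicate 2 it was 1.25 (edgeR adjusted p = 0.0501), and with the offset 0.83 (SE 0.23, adjusted p = 0.0844).

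Agt encodes angiotensinogen, which astrocytes make in the brain, and lies at chr8:124556534-124569706. It had 31.9, 24.7 and 22.2 CPM in Bahd1-WT and 41.1, 113 and 51.0 CPM in Bahd1-KO. The groups did not overlap, and the log2 fold change was 1.38 (SE 0.36, 2.61-fold, edgeR adjusted p = 0.0643), 0.81 without Bahd1-KO replicate 2 and 0.52 with the offset (adjusted p = 0.129). Cst3 encodes cystatin C, a secreted protease inhibitor, and had 278, 188 and 312 CPM in Bahd1-WT against 365, 934 and 349 CPM in Bahd1-KO. Replicates 1 and 3 of Bahd1-KO were close to the highest Bahd1-WT value. The log2 fold change of Cst3 was 1.08 (SE 0.39, edgeR adjusted p = 0.104). It was 0.46 without Bahd1-KO replicate 2 (edgeR adjusted p = 0.187) and 0.04 with the offset. Clu encodes clusterin, another secreted chaperone and lipid carrier, and had 484, 371 and 463 CPM in Bahd1-WT against 533, 852 and 614 CPM in Bahd1-KO. All Bahd1-KO libraries were higher, with a log2 fold change of 0.60 (SE 0.21, edgeR adjusted p = 0.0981) that turned to -0.06 with the offset. Without Bahd1-KO replicate 2 it was 0.38 (edgeR adjusted p = 0.159).

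Serpina3n, a protease inhibitor induced in reactive astrocytes, had 26.2, 26.3 and 17.7 CPM in Bahd1-WT and 30.2, 36.5 and 33.9 CPM in Bahd1-KO, a log2 fold change of 0.52 (SE 0.20, edgeR adjusted p = 0.123), or 0.37 with the offset. It has near-identical copies in its gene cluster, so that its counts are uncertain. Sparcl1 encodes hevin, a matrix protein that promotes synapse formation, and was the most abundant member per length. It had 2666 to 3012 CPM in Bahd1-WT and 3062 to 3280.3 CPM in Bahd1-KO, and its log2 fold change of 0.13 turned to -0.01 with upper-quartile scaling and was 0.36 with the offset (SE 0.12, edgeR adjusted p = 0.115). F3, the tissue factor that starts coagulation, was the remaining member with overlapping values, at 85.5 to 119 against 82.3 to 105 CPM. It had a log2 fold change of -0.22, or 0.11 with the offset.

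Among the enzymes and lipid-handling genes, 3 of 6 were higher at the looser threshold, where 14.7% of all genes and 21.9% of expressed protein-coding genes were. Aldh1l1, the folate enzyme widely used to mark astrocytes (chr6:90486427-90600203), had 34.6, 18.6 and 26.9 CPM in Bahd1-WT and 41.3, 73.2 and 49.5 CPM in Bahd1-KO. The values did not overlap, and the log2 fold change was 1.03 (SE 0.28, 2.05-fold, edgeR adjusted p = 0.0653), or 0.55 with the offset (adjusted p = 0.105). A noncoding gene on the same strand, Gm45901, overlaps its exons, and by the counter's default reads on both genes are assigned to neither. Aldoc is the brain form of aldolase in glycolysis (chr11:78322968-78327781) and had 729.6, 582 and 649 CPM in Bahd1-WT against 894, 1644 and 1061 CPM in Bahd1-KO. All Bahd1-KO libraries were higher, by a log2 fold change of 0.88 (SE 0.24, edgeR adjusted p = 0.0647), and 0.75 with the offset (adjusted p = 0.0742).

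Acsbg1 activates long-chain fatty acids (chr9:54604877-54661870) and had 81.0, 60.5 and 65.3 CPM in Bahd1-WT against 94.8, 202 and 132 CPM in Bahd1-KO. Its log2 fold change was 1.05 (SE 0.27, 2.07-fold, edgeR adjusted p = 0.0638), or 0.40 with the offset (adjusted p = 0.0982). Fabp7, a fatty acid binding protein of radial glia and astrocytes, showed another order of libraries. It had 46.3, 34.6 and 38.9 CPM in Bahd1-WT and 92.0, 46.9 and 35.7 CPM in Bahd1-KO, so that replicate 1 was its highest library and the groups overlapped. Fabp7 had a log2 fold change of 0.54 (SE 0.33, edgeR adjusted p = 0.270), and 0.92 with the offset (SE 0.21, adjusted p = 0.0742). Without Bahd1-KO replicate 1 the value without the offset was 0.08 (edgeR adjusted p = 0.781), and the value with the offset was 0.79 (edgeR adjusted p = 0.0375). Without Bahd1-KO replicate 2 the value with the offset was 0.88 (edgeR adjusted p = 0.122). Ndrg2, an astrocyte protein of the NDRG family, overlapped at 897 to 1039.9 against 1034 to 1176 CPM, with a log2 fold change of 0.15 that turned to -0.12 with the offset. Ppp1r3c, which targets a phosphatase to glycogen, overlapped at 72.5 to 100.1 against 65.8 to 90.1 CPM, with a log2 fold change of -0.18, or 0.16 with the offset.

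The regulators and receptors included the member with the highest fold. Id3 is an inhibitor of basic helix-loop-helix transcription factors and lies at chr4:136143497-136145755. It had 1.76, 1.04 and 1.16 CPM in Bahd1-WT and 3.49, 15.2 and 5.61 CPM in Bahd1-KO, all higher. The means were 1.32 ± 0.387 and 8.09 ± 6.22 CPM (SD, n = 3 each), a 6.14-fold difference with a log2 fold change of 2.62 (SE 0.53, edgeR adjusted p = 0.0634). Without Bahd1-KO replicate 2 the log2 fold change was 1.79 (edgeR adjusted p = 0.0501). With the offset it was also 1.79 (SE 0.34, adjusted p = 0.0738), the highest of the members there too. With the offset and without Bahd1-KO replicate 2, Id3 was the only member with an adjusted p-value under 0.1, at a log2 fold change of 1.33 (edgeR adjusted p = 0.0918), where 0.786% of all genes were higher at that threshold. Fgfr3, a receptor for fibroblast growth factors, had 56.7, 45.0 and 43.7 CPM in Bahd1-WT and 57.3, 96.2 and 84.3 CPM in Bahd1-KO. Replicate 1 of Bahd1-KO was next to replicate 1 of Bahd1-WT. The log2 fold change of Fgfr3 was 0.71 (SE 0.22, edgeR adjusted p = 0.0774), which turned to -0.03 with the offset. Ntsr2, a neurotensin receptor of astrocytes, had 74.2 to 89.9 CPM in Bahd1-WT and 92.3 to 134 CPM in Bahd1-KO, with a log2 fold change of 0.39 (edgeR adjusted p = 0.174), or 0.19 with the offset. Sox9, the transcription factor that marks astrocyte nuclei, overlapped at 18.5 to 20.7 against 20.2 to 27.1 CPM, with a log2 fold change of 0.20, or 0.37 with the offset.

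Both other transporters were separated, in opposite directions. Slc7a10, which carries small neutral amino acids such as serine and glycine (chr7:35186385-35201114), had 13.6, 10.3 and 11.3 CPM in Bahd1-WT and 18.1, 39.3 and 25.5 CPM in Bahd1-KO. Its log2 fold change was 1.23 (SE 0.29, 2.35-fold, edgeR adjusted p = 0.0634), or 0.33 with the offset (adjusted p = 0.148). Slc39a12, a zinc transporter, had 98.3, 101 and 103 CPM in Bahd1-WT and 85.1, 60.0 and 92.0 CPM in Bahd1-KO, all lower. The log2 fold change of Slc39a12 was -0.35 (SE 0.18, edgeR adjusted p = 0.216), and it turned to 0.17 with the offset.

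**Figure D2:**
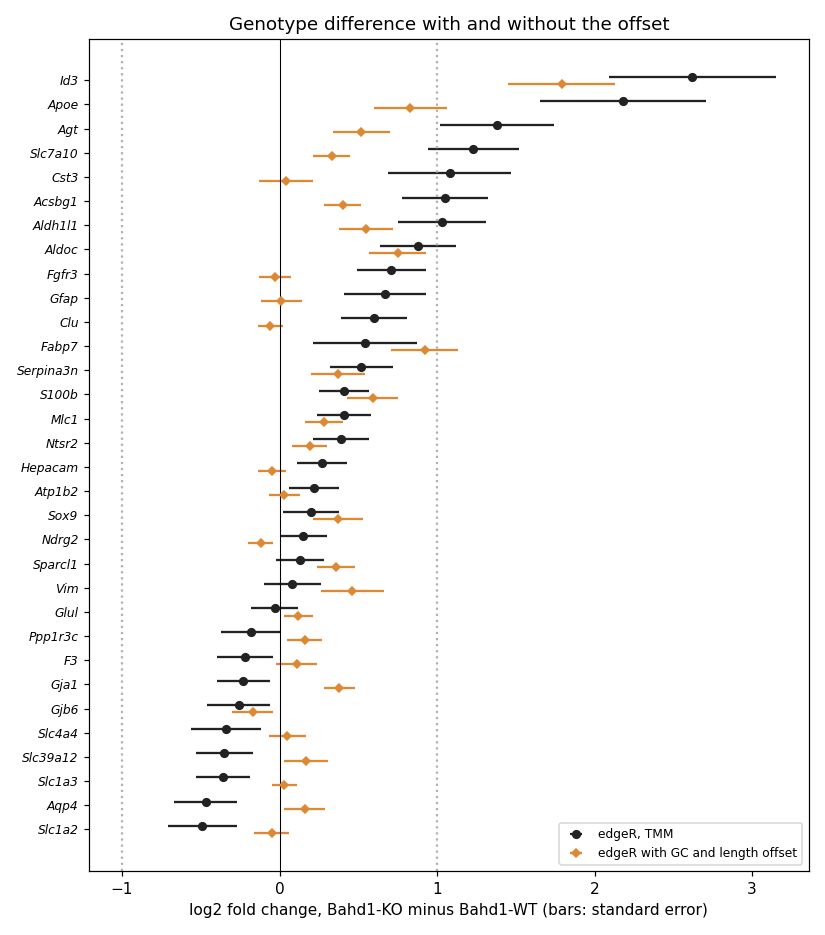
Log2 fold change of each astrocyte gene, Bahd1-KO minus Bahd1-WT, with standard errors as bars, from edgeR with TMM (black circles) and with the GC and length offset (orange diamonds); dotted lines mark a 2-fold difference. The offset values are smaller in size for 25 of the 32 genes, and Id3 and Fabp7 have the highest.

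The differences followed the GC content of the members' transcripts. Over the 32 members the Spearman correlation of log2 fold change with GC content was 0.845, and over 23940 genes 0.745, both descriptions across genes that share the 6 libraries and are not independent. The 16 members of lower GC content (41.4% to 51.9%) had 6 log2 fold changes above 0 and 10 below, with a median of -0.20. In the 16 of higher GC content (51.9% to 59.5%) all 16 were above 0, with a median of 0.69, and 8 of the 9 members called at the looser threshold were among them. With the offset, the medians were 0.17 and 0.24, beside 0.12 over all protein-coding genes, and the correlation over the members was -0.01. The members of higher GC content were those that Bahd1-WT replicate 1 also held at the higher end and Bahd1-WT replicate 2 at the lower end, with correlations over the members of 0.673 and -0.612 within that genotype. Bahd1-KO replicates 1 to 3 gave 0.698, 0.882 and 0.834. The part of this trend in the genotype differences was not tested beyond the offset.

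**Figure D3:**
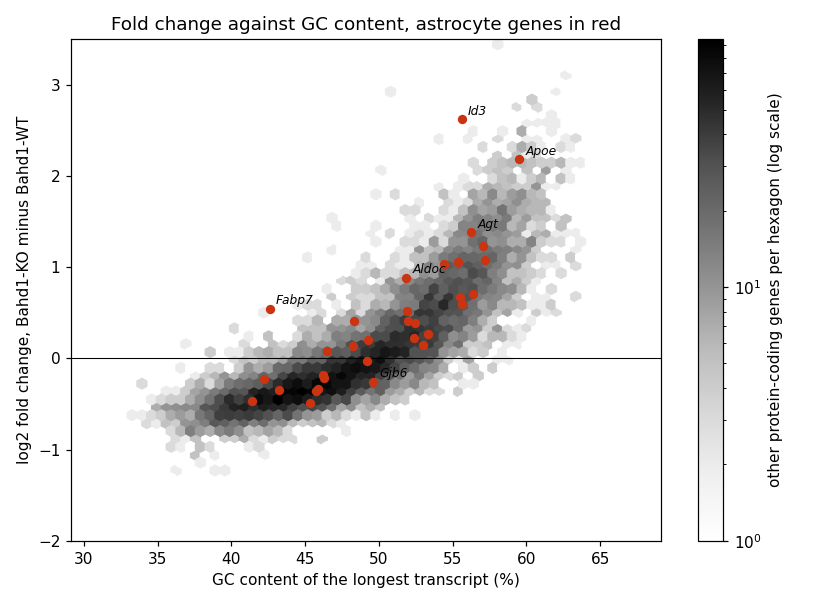
Log2 fold change (Bahd1-KO minus Bahd1-WT) against the GC content of the longest transcript in percent, with the 32 astrocyte genes in red over 12400 other protein-coding genes with a mean above 2 CPM in Bahd1-WT (hexagons shaded by the number of genes on a log scale; 16 genes lie beyond the axis). The red points climb with GC content along the band of the other genes, and Id3 and Fabp7 lie near its upper edge or above it.

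With the offset, 26 members (81.2%) had a log2 fold change above 0, against 60.3% of all genes and 70.8% of expressed protein-coding genes. The sign differed from that without the offset for 12 members. No member was a DEG with the offset either, where 0.0167% of all genes were. At the looser threshold 7 members (21.9%) were higher and 0 lower, where the background was 7.09% of all genes and 11.7% of expressed protein-coding genes higher, and 1.51% of all genes lower. These were Id3, Fabp7, Aldoc, Gja1, Apoe, S100b and Acsbg1. Aldoc, Apoe, Id3 and Acsbg1 were called with and without the offset.

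The calls depended on the libraries. Without Bahd1-KO replicate 2, 7 members (21.9%) were higher at the looser threshold, where 8.94% of all genes were, and the median over the members was 0.20. Of the 9 called with all libraries, Clu and Fgfr3 (edgeR adjusted p = 0.126) lost the call. The log2 fold changes without that library were -0.28 for Slc1a2, -0.30 for Aqp4, -0.14 for Slc4a4, -0.19 for Slc39a12 and 0.58 for Aldoc. Fabp7 went the other way, to 0.67. Without Bahd1-KO replicate 1, 8 members were DEGs (Aldh1l1, Aldoc, Apoe, Acsbg1, Slc7a10, Cst3, Id3 and Agt), all higher, and so were 14.6% of all genes, with 2.26% lower. Leaving out any of Bahd1-WT replicates 1, 2 and 3 or Bahd1-KO replicate 3 left 0 members at the looser threshold. These fits gave 0, 0, 4 and 0 DEGs among all genes, in the same order. Apoe and Id3 shared the same edgeR adjusted p-value in each fit without a Bahd1-WT library (0.108, 0.243 and 0.172). The share of all genes at the looser threshold is not given for these fits. Without Bahd1-WT replicate 1, the library with the highest lung transcripts, 23 members had a log2 fold change above 0 and the median was 0.37. With the offset and without Bahd1-KO replicate 1, the DEGs among the members were Apoe and Id3, where 4.01% of all genes were called higher.

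Per kilobase of merged exons, the members spanned a wide range in Bahd1-WT. Sparcl1 was the most abundant at 981 CPM per kilobase, followed by Glul at 666, Ndrg2 at 288 and Slc1a2 at 273. Ndrg2 and Slc1a2 lay within their spread, with SDs of 21.7 and 9.92 CPM per kilobase. At the lower end, Sox9 was at 4.83 and Id3 at 0.736 CPM per kilobase. In Bahd1-KO, Sparcl1 and Glul kept ranks 1 and 2. Apoe was at rank 11 in Bahd1-WT and at rank 3 in Bahd1-KO, Cst3 went from rank 6 to rank 4 and Slc1a2 from rank 4 to rank 9. The SD of Apoe in Bahd1-KO was 418 CPM per kilobase on a mean of 505, so that its rank there did not separate from its neighbors. The same held for Cst3, with an SD of 263 on a mean of 434, and for Slc1a2, at 194 with an SD of 56.1 beside Clu at 194 and S100b at 209. The summed level of all members overlapped between genotypes, at 16676, 15257 and 15668 CPM in Bahd1-WT and 15936, 18387 and 17143 CPM in Bahd1-KO. Directions differed within this sum. The glutamate uptake genes summed to 6710 to 7278 CPM in Bahd1-WT and 4558 to 6250 CPM in Bahd1-KO. The secreted and coagulation group had 3576 to 4234 and 4619 to 7257 CPM. The enzyme, filament and regulator groups were also higher in every Bahd1-KO library, and the endfoot and other transporter groups overlapped.

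**Figure D4:**
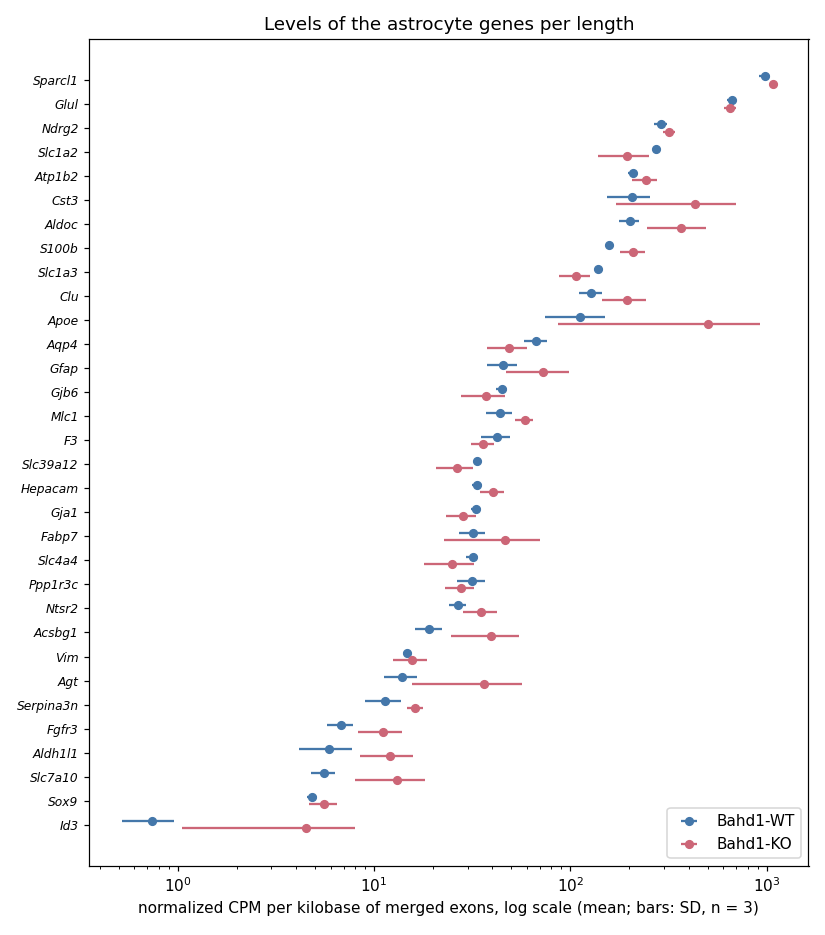
Mean level of each astrocyte gene in normalized CPM per kilobase of merged exons on a log axis, Bahd1-WT in blue and Bahd1-KO in red, with SD as bars (n = 3). Genes are ordered by their level in Bahd1-WT, from Sparcl1 at 981 to Id3 at 0.736, and the red bar of Apoe is among the widest.

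Members were also compared by the SD over the 6 libraries of their log2 CPM difference, where a small value means that a pair kept its ratio. The closest pair was S100b and Ntsr2, with an SD of 0.0766, followed by Ppp1r3c and F3 with 0.0811, Sparcl1 and Ndrg2 with 0.0814 and Slc1a3 and Gja1 with 0.0823. The widest was Slc1a2 and Id3, with an SD of 1.86. These are descriptions over 6 samples.

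A further list of astrocyte-enriched genes also held higher and lower members, and its summed level was 2928 to 3267 CPM in Bahd1-WT and 3305 to 3840.0 CPM in Bahd1-KO. Without its most abundant gene, Sparc, the sums overlapped, at 2347 to 2638 and 2554 to 2998 CPM. All 30 genes were tested, none was a DEG in edgeR, and 12 were higher and 1 was lower at the looser threshold, where 21.9% of expressed protein-coding genes were higher and 4.44% lower. The median log2 fold change was 0.31, or 0.23 with the offset. Those with the lowest p-values among the higher ones were Tst, a mitochondrial sulfurtransferase, Mfge8, a secreted bridge for the uptake of dying cells, and Bcan, the matrix proteoglycan brevican. Tst had 4.22, 2.46 and 2.58 CPM in Bahd1-WT and 7.24, 26.9 and 11.6 CPM in Bahd1-KO, a log2 fold change of 2.31 (SE 0.47, edgeR adjusted p = 0.0634) that was 1.98 with the offset (adjusted p = 0.0738). Mfge8 and Bcan had log2 fold changes of 1.66 and 1.92, or 0.88 and 0.59 with the offset. In all 3 genes the Bahd1-KO libraries lay above the Bahd1-WT libraries and replicate 2 was the highest. On the lower side, the peptide transporter Slc15a2 had 50.4, 53.0 and 39.3 CPM in Bahd1-WT and 38.8, 27.6 and 29.3 CPM in Bahd1-KO, with a log2 fold change of -0.58 (SE 0.20, edgeR adjusted p = 0.0976), which was -0.04 with the offset. Etnppl, a phospholyase for phosphoethanolamine, and Ednrb, an endothelin receptor, were next by p-value, at -0.39 and -0.36, and turned to 0.11 and 0.14 with the offset. At the looser threshold with the offset, Prodh, Bcan, Cbs, Mfge8 and Tst of this list were higher and Tril was lower (-0.43, edgeR adjusted p = 0.0916). The background there was 11.7% of expressed protein-coding genes higher and 1.51% of all genes lower.

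Genes known to be induced in reactive astrocytes were close to the background of all genes. Of 22 tested, 10 were above 0 and 12 below, where 46.6% of all genes were above 0. None (0) was a DEG in edgeR, and 4 were higher and 1 was lower at the looser threshold, where 14.7% of all genes were higher and 4.77% lower. The median was -0.04, or 0.04 with the offset. DESeq2's test with the prior called 3 of the 22 higher and 0 lower, where it called 9.56% of all genes higher and 0.901% lower. Hspb1, a small heat shock protein, was counted 37, 7 and 21 times in the Bahd1-WT libraries and 62, 672 and 81 times in the Bahd1-KO libraries. This was a log2 fold change of 3.59 (SE 0.74, edgeR adjusted p = 0.0634), or 1.86 with the offset (adjusted p = 0.0738). S100a10, an annexin partner, was at 0.61, or 0.46 with the offset, and Psmb8, an immunoproteasome subunit, at 1.33 (edgeR adjusted p = 0.0721, or 0.101 with the offset). On the lower side, Cp, the copper-carrying ferroxidase ceruloplasmin, had 59.4, 64.1 and 54.4 CPM in Bahd1-WT and 43.3, 25.2 and 36.5 CPM in Bahd1-KO, a log2 fold change of -0.76 (SE 0.21, edgeR adjusted p = 0.0672) and -0.15 with the offset. Osmr, the oncostatin M receptor, and Gbp2, an interferon-induced GTPase, were at -0.60 and -0.45, or -0.19 and -0.15 with the offset.

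Markers of other cell types that also express some members were read in the same libraries, and the counts of genes called in these short lists stand against 21.9% of expressed protein-coding genes higher and 4.44% lower at the looser threshold. The microglia list had a summed 320 to 367 CPM in Bahd1-WT and 293 to 343 CPM in Bahd1-KO, with 3 of 8 genes higher and 0 lower at the looser threshold. The oligodendrocyte list had 5226 to 6034 CPM in Bahd1-WT and 5453 to 8384 CPM in Bahd1-KO, with 3 of 8 higher, and without Mbp it had 4024 to 4716 and 3852 to 4310.5 CPM. The ependymal and choroid plexus list had 252 to 350 CPM in Bahd1-WT and 438, 1073 and 596 CPM in Bahd1-KO, with 3 of 5 higher and a median log2 difference of 1.12. Most of this sum was Ttr (transthyretin), and the other 4 genes summed to 38.4 to 44.3 CPM in Bahd1-WT and 36.1 to 54.4 CPM in Bahd1-KO, which overlapped. The genes differed in direction: Ttr, Foxj1 and Ccdc153 were higher in every Bahd1-KO library (log2 differences of 1.29, 2.56 and 1.12), Folr1 overlapped (0.66), and Kl was lower in every Bahd1-KO library (-0.40, edgeR adjusted p = 0.130). The sums of meningeal fibroblast markers were 72.3 to 80.2 CPM in Bahd1-WT and 58.8 to 70.5 CPM in Bahd1-KO, where 0 of 4 genes were called, and overlapped without Dcn. Neuron markers had 6845 to 8339 CPM over the 6 libraries, where the median log2 difference was 0.00 and 1 of 8 was higher. Endothelial markers had 202 to 217 CPM in Bahd1-WT and 202 to 234 CPM in Bahd1-KO, with 1 of 6 higher, and oligodendrocyte precursor markers 110 to 124 and 115 to 175 CPM, with 2 of 4 higher. Without Pdgfra the precursor sums did not overlap, at 34.6, 29.9 and 36.6 CPM in Bahd1-WT and 43.0, 119 and 60.5 CPM in Bahd1-KO. These counts are without the offset, which changed calls in both directions. With it, C1qa of microglia (-0.47) and Olig2 of precursors (-0.80) were lower at the looser threshold. Snap25 (0.58) and Stmn2 (0.78) of neurons were higher, among others. The list medians with the offset were 0.11 for microglia, 0.35 for oligodendrocytes, 0.19 for precursors and 0.11 for neurons. They were 0.31 for endothelium, 1.08 for ependyma and choroid plexus and -0.19 for fibroblasts. The part of these other cell types in the levels of Apoe, Clu, Cst3, Vim, S100b and Id3 was not tested.

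**Figure D5:**
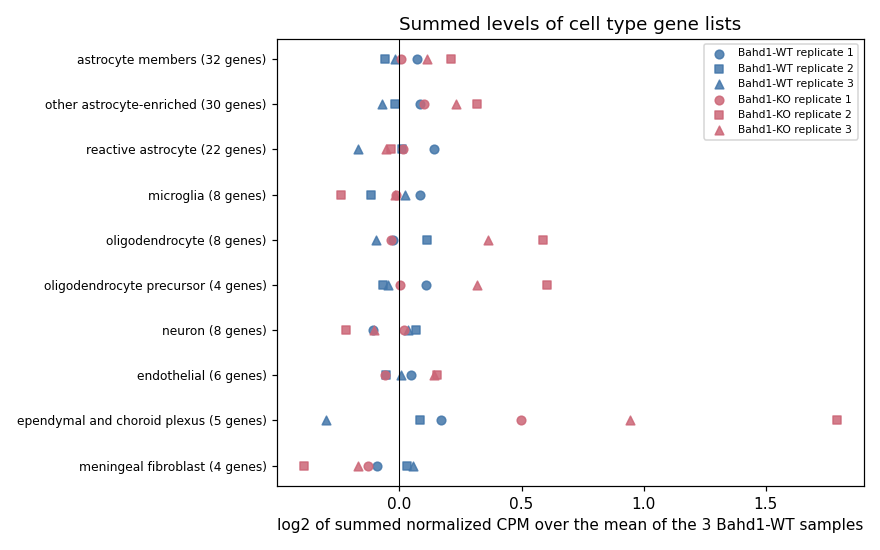
Summed normalized CPM of each gene list in every library, as the log2 over the mean of the 3 Bahd1-WT samples, with Bahd1-WT in blue and Bahd1-KO in red. The sum of the astrocyte genes lies close to 0 in both genotypes, while its role groups differ in both directions. The ependymal and choroid plexus list is the farthest to the right, at 438 to 1073 CPM in Bahd1-KO against 252 to 350 CPM in Bahd1-WT. Most of it is Ttr. The sums of its other 4 genes overlap between genotypes, and Kl is lower in Bahd1-KO (-0.40).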

How the data were processed

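Reads per gene were measured in 3 Bahd1-WT and 3 Bahd1-KO hemispheres, assigned from the sample labels. According to the methods, RNA was extracted with RNeasy, made into stranded polyA libraries and counted on exons by strand. The authors deposited whole-number counts, not normalized or filtered, for 53801 genes on GRCm38. The submitters' processing notes name cutadapt 1.11, STAR 2.5.0a, featureCounts 1.4.6-p3, R 3.5.1 and DESeq2 1.20.0, while the methods also name Tophat2 and describe both single-end and paired-end reads. The table held 0 columns from other samples, and the embryo data were not analysed here.

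The 23975 genes whose counts summed to 10 or more entered edgeR 4.0.16 (R 4.3.3), with TMM and the quasi-likelihood test of genotype, without covariates, and p-values were adjusted over all of them by Benjamini-Hochberg. Adjusted p-values come from this test unless DESeq2 is named, and are two-sided. A DEG had an adjusted p under 0.05 and at least a 2-fold difference, and a looser call had an adjusted p under 0.1. The offset was a natural spline on GC content (5 degrees of freedom) and log length (3) per library, fitted to 13283 genes above 1 on the log2 CPM scale. Positions, merged exon lengths and GC content of the longest transcript came from GENCODE M21, and promoters from RefSeq GRCm38.p6. Expressed protein-coding genes numbered 13007. A floor of 3 counts corresponds to 0.0315 to 0.069 CPM and covers counting error only. Counts were assigned by strand, and the stated counting options leave out reads that overlap exons of more than 1 gene on a strand.

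Alternatives were DESeq2 1.42.0 (size factors, and its Wald test with and without the prior), upper-quartile and total-count scaling, other filters, a replicate block, the offset, and leaving out each library. The offset without Bahd1-KO replicate 1 or 2 was added after seeing the data. The members and the lists were chosen with earlier results of these data known. All 32 members are named, by role, and of the other astrocyte-enriched and the reactive lists the 3 genes with the lowest p in each direction. Of the marker lists of other cell types, DEGs of the main edgeR fit were to be named, and there were none (0). DESeq2's test with the prior called 1 microglia, 2 oligodendrocyte, 2 precursor, 1 neuron, 1 endothelial and 3 ependymal or choroid plexus genes higher. It called 3 lung epithelium genes lower, where 9.56% of all genes were higher and 0.901% lower. The scripts were tested on simulated counts.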

Additional observations from a re-analysis of the deposited data

How the results depend on the processing

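In edgeR, no member was a DEG with upper-quartile factors, the size factors of DESeq2, the filterByExpr filter, the replicate block or the offset. DEGs among all genes, members and other astrocyte-enriched genes numbered 2007, 6 and 6 with total counts (94.1% of DEGs higher), 2508, 6 and 8 with DESeq2's prior (91.4% higher), 2742, 7 and 8 without it, and 2770, 7 and 8 with edgeR on genes with at least 1 count. The main edgeR fit gave 2, 0 and 0, with 50% of the DEGs higher. All genes gave 4 DEGs with the offset, 7 with the replicate block and 12 with both. In the 2 fits with the block, 0 members had an adjusted p under 0.1. Leaving out 1 library gave 0 to 3988 DEGs among all genes, 0 to 8 among members, 0 to 19 members with an adjusted p under 0.1, 0 to 9 DEGs among the other astrocyte-enriched genes and medians over the members of 0.20 to 0.38. For the block and for leaving out a library, the share of all genes under 0.1 is given only without Bahd1-KO replicate 2 (8.94% higher). The median was 0.18 with upper-quartile scaling, which moved the median of all genes from -0.06 to -0.20, and 0.18 with the offset alone or with the block, which moved the median of all genes to 0.09.

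Same-numbered samples are different animals, and their deviations from the group means had correlations of -0.629, -0.642 and -0.142. These deviations also hold each library's trend with GC content, so the correlations cannot show whether the numbers pair the samples.

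With the offset the sign turned for Aqp4 (0.16), Slc1a3 (0.03), Gja1 (0.38), Fgfr3 (-0.03), Glul (0.12), Clu (-0.06), Slc4a4 (0.05), Hepacam (-0.05), Ppp1r3c (0.16), Slc39a12 (0.17), F3 (0.11) and Ndrg2 (-0.12). With the block added, these were 0.15, 0.04, 0.38, -0.03, 0.12, -0.06, 0.04, -0.05, 0.17, 0.16, 0.12 and -0.12. Upper-quartile scaling turned Vim (-0.07) and Sparcl1 (-0.01), total counts Glul (0.04), and leaving out a library moved Glul between -0.07 and 0.01 (0.01 without Bahd1-WT replicate 1, 0.00 without Bahd1-KO replicate 3) and Vim between -0.09 (without Bahd1-KO replicate 2) and 0.21. The cause was not tested.

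In the fits added after seeing the data, the share of all genes with an adjusted p under 0.1 is given only without Bahd1-KO replicate 2 (0.786% higher). Of these fits, the offset without Bahd1-KO replicate 1 gave 1181 DEGs, 2 among members and 4 among the other astrocyte-enriched genes. It gave 15 members with an adjusted p under 0.1, with no share of all genes to set beside them. It turned Aqp4 (0.31), Slc1a3 (0.03), Gja1 (0.43), Fgfr3 (-0.03), Glul (0.15), Clu (-0.05), Slc4a4 (0.10), Ppp1r3c (0.20), Slc39a12 (0.32), F3 (0.17) and Ndrg2 (-0.12). Without Bahd1-KO replicate 2 it gave 5 DEGs, 1 member with an adjusted p under 0.1 and a median of 0.14, and turned Gfap (-0.09), Aqp4 (0.14), Slc1a2 (0.03), Slc1a3 (0.04), Gja1 (0.29), Glul (0.10), Clu (-0.06), Slc4a4 (0.14), Hepacam (-0.06), Cst3 (-0.14), Ppp1r3c (0.13), Slc39a12 (0.19), F3 (0.06) and Ndrg2 (-0.11). The lowest count of any member was 64 (Id3 in Bahd1-WT replicate 2), and 3 animals per genotype limit the precision of all members.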
